A study of Mus musculus with 5 samples.

Results

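The heat shock chaperones described here are 9 genes, Hspa1a, Hspa1b, Hspa8, Hsph1, Dnajb1, Hsp90aa1, Hspd1, Hspe1 and Bag3, of 32285 genes in the count tables of mouse spleen cells. They were chosen by symbol, with earlier results of these same libraries known, so their values are given as descriptions. The recipients were C57/BL6 mice given saline by vein, or splenic cells that were allogeneic (from Balbc donors) or isogeneic (from B6 donors) and were infused either live or apoptotic. Where 5 values stand in a row, the first is saline, followed by live allogeneic, then live isogeneic, after it apoptotic allogeneic, and last apoptotic isogeneic. Spleens were taken 48 h after the infusion and digested with collagenase D and DNAse I. CD45+ cells and dendritic cells (DCs) were enriched with magnets apart from each other and mixed in equal amounts, and single cells were then sequenced with a 10x Genomics kit that reads the 3′ ends of transcripts. Each of the 5 groups is 1 library. The number, age and sex of the mice behind a library are not given in the sources used here, and infused donor cells were not told apart from the recipients' own cells. No test between groups was therefore possible, and every interval below covers counting error only.

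Heat shock proteins are chaperones: they bind unfolded stretches of other proteins and help them fold, refold or be degraded. The inducible genes are switched on by heat shock factor 1, which binds repeated nGAAn units, the heat shock element, in their promoters. Hspa1a and Hspa1b encode the inducible form of HSP70, and Hspa8 encodes its constitutive relative HSC70. Dnajb1 encodes an HSP40 that hands clients to HSP70, while Hsph1 (HSP110) and Bag3 release nucleotide from HSP70 and so recycle it. Hsp90aa1 encodes an HSP90, and Hspd1 and Hspe1 encode HSP60 and HSP10, which form the folding chamber of the mitochondrial matrix. In spleen, inducible HSP70 is also a well-known marker of stress during tissue digestion and cell sorting.

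The libraries differed in size and depth. Between 1186 cells (live allogeneic) and 6380 cells (apoptotic isogeneic) passed the filter, 16271 in all, with a median of 2298 to 4984.5 unique molecular identifiers (UMIs, counts of single RNA molecules) a cell. Clustering was run without the chaperones and related stress genes, and clusters were named from marker genes. A total of 9 classes held at least 30 cells and 50000 UMIs in every library: B-like, T-like, NK-like, type 1 and type 2 conventional DC-like (cDC1-like, cDC2-like), plasmacytoid DC-like (pDC-like), red pulp macrophage-like, erythroid-like, and a cluster of 458 cells led by Cd209a. That cluster stays unnamed, since its 10 leading genes held 1 cDC2 marker but 2 of classical monocytes (Ms4a6c and Ccr2). They also held Cx3cr1, a marker of non-classical monocytes. Libraries shared 0 to 8 cell barcodes a pair. Levels are UMIs of a gene per 1000000 UMIs of the class in a library (counts per 1000000, CPM), not divided by transcript length, and a gene is called higher or lower past 1.5-fold where both sums together held at least 20 UMIs.

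Promoters were looked up for the members because Hspa1a and Hspa1b, which carry the widest differences, are neighbouring copies. RefSeq windows (GRCm38.p6, the build of the count tables) were found for 7 of the 9 members. Hspa1a (ENSMUSG00000091971) lies on the minus strand at chr17:34969190-34972156 and Hspa1b (ENSMUSG00000090877) on the same strand at chr17:34956436-34959238, per GENCODE. The 250 bases before the start of each, at chr17:34972157-34972406 and chr17:34959239-34959488, are printed 5′ to 3′ with the letters GAANNTTC, an inverted pair of heat shock element units, in capitals.
Hspa1a: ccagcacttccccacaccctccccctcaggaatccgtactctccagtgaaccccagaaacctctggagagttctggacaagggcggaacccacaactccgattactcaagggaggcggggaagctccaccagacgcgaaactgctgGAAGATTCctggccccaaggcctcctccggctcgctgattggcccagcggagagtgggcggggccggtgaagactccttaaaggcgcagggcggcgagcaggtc
Hspa1b: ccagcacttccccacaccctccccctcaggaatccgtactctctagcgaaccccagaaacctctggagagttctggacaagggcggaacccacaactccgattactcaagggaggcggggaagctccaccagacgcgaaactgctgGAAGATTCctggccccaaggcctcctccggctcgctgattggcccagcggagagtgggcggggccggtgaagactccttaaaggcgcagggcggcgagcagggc
These stretches differ at 3 of 250 bases (C44T, T47C and T249G, with the Hspa1a base first and positions counted from the first base printed), so they are 98.8% identical. Both carry the capitals at the same place, 104 bases before the start. The coding sequences are 99.5% identical in the GENCODE transcripts. Their 3′ untranslated regions are not alike: they aligned with 51.1% identity, and none of the 720 windows of 91 bases in that of Hspa1a occurs in the Hspa1b transcript. Reads near the 3′ ends can thus tell the genes apart, while reads in the coding part often cannot, and the sum of both genes is used as the main value.

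Hspd1 and Hspe1 lie head to head on chromosome 1, with 5′ ends that overlap, at chr1:55077835-55088243 on the minus strand and chr1:55088132-55091307 on the plus strand. The site upstream of Hspe1 is shown because it also lies upstream of an alternative start of Hspd1; the window of the other Hspd1 start held none of the letters searched. On the plus strand at chr1:55088053-55088082, it reads as follows, with heat shock element letters in capitals.
Hspe1 site: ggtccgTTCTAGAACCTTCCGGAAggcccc
The letters searched were GAANNTTC and TTCNNGAA, each the same on both strands, and the longer forms that add a further NNGAA to the former or NNTTC to the latter, which are each other's opposite strand and contain the shorter forms. Windows held 300 bases, from 250 before to 50 after the start. Of all 32851 windows, 15.1% held an 8-letter form and 0.603% a 13-letter form. An 8-letter form was in the windows of 6 of the 7 members found (Hspa1a, Hspa1b, Hspd1, Hspe1, Hsph1 and Bag3, in the last only after the start). A 13-letter form was in those of Hspd1, Hspe1 and Hsph1, in Hsph1 only after the start. Dnajb1 had neither, which says only that these letters are not in its window.

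Inducible HSP70 was highest in the libraries from both allogeneic infusions. In cDC2-like cells, the class of antigen-presenting DCs that mainly primes CD4+ T cells, Hspa1a and Hspa1b together stood at 54.2 CPM in saline (101 UMIs, 340 cells), 227 in live allogeneic (233 UMIs, 92 cells), 125 in live isogeneic (277 UMIs, 283 cells), 206 in apoptotic allogeneic (370 UMIs, 266 cells) and 54.5 in apoptotic isogeneic (78 UMIs, 339 cells). The allogeneic libraries thus stood above the isogeneic one of the same kind, the live isogeneic library lay between, and the interval of apoptotic isogeneic over saline held 1. Live allogeneic over live isogeneic was 1.82-fold (95% interval 1.52 to 2.18), and apoptotic allogeneic over apoptotic isogeneic 3.79-fold (2.96 to 4.90). Against saline the folds were 4.20 (3.31 to 5.35) for live allogeneic, 2.30 (1.83 to 2.92) for live isogeneic, 3.8 (3.05 to 4.79) for apoptotic allogeneic and 1.00 (0.738 to 1.36) for apoptotic isogeneic. The 4 saline comparisons share that library, so they are not independent of each other. The class includes a cluster of 165 cycling cells (led by Pclaf, Nusap1 and Top2a), 31, 29, 53, 26 and 26 in the 5 libraries. In it the sum was at 3.44, 152, 138, 83.2 and 23.6 CPM. Without these cells the live fold was 2.49 (2.01 to 3.09) and the apoptotic one 3.86 (3 to 5.03).

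**Figure D1:**
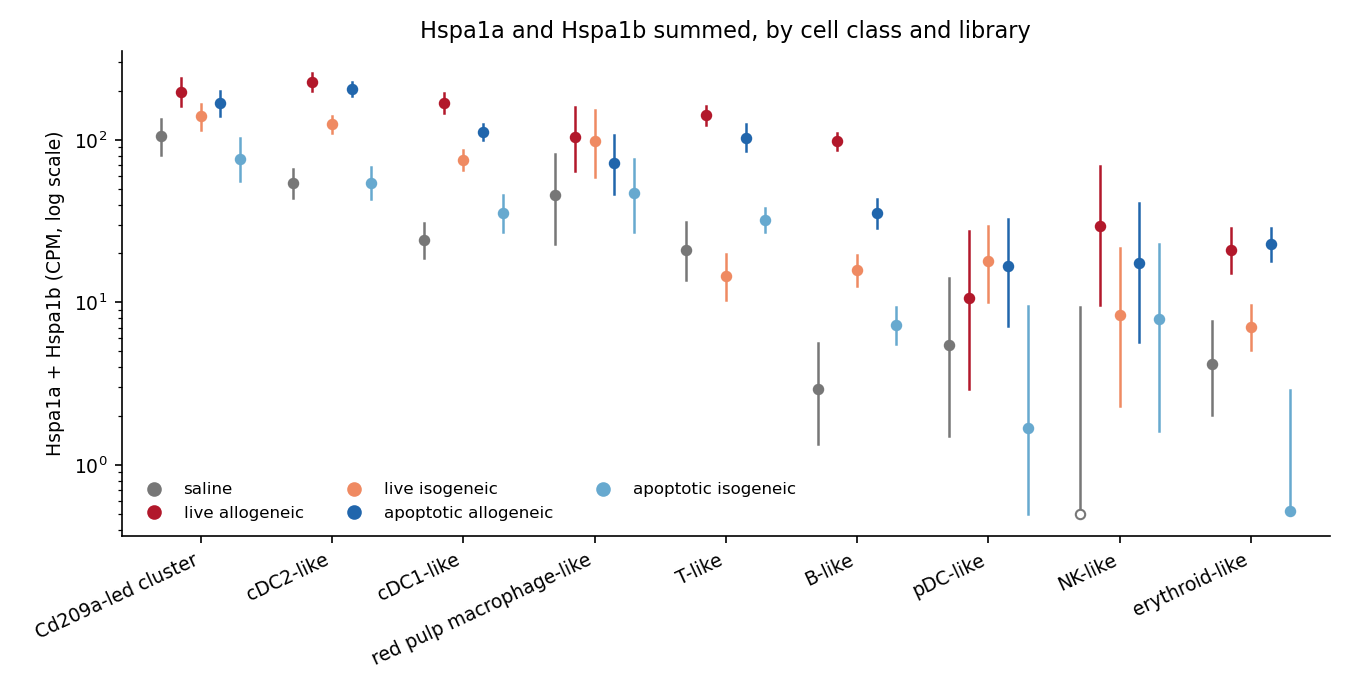
Hspa1a and Hspa1b summed (CPM, log scale) for 9 cell classes, ordered by their median over libraries; points are single libraries, coloured by infusion, bars are 95% Poisson intervals, and points or bar ends under 0.5 CPM are drawn at 0.5. The live allogeneic points are the highest in 7 of the 9 classes, and the one open circle is NK-like cells of the saline library, at 0.

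Most classes shared the highest library, though the order of the rest varied, while the level set the classes apart. Medians over the 5 libraries ran from 139 CPM in the Cd209a-led cluster and 125 in cDC2-like cells through 75.1 in cDC1-like, 72.4 in red pulp macrophage-like, 32.3 in T-like and 15.8 in B-like cells to 10.7 in pDC-like, 8.41 in NK-like and 7.10 in erythroid-like cells. Each class overlapped in range with the one above it, but the ranges span differently infused libraries and do not show neighbours to be alike. Within each library, cDC2-like cells stood above cDC1-like cells, at 54.2 against 24.3 CPM in saline and 227 against 169 in live allogeneic. The Cd209a-led cluster stood above cDC2-like cells in saline (105 against 54.2 CPM) and below them in live allogeneic (198 against 227). The live allogeneic library was the highest in 7 of the 9 classes, and neither saline nor apoptotic isogeneic was the highest in any. In pDC-like cells live isogeneic was the highest, at 18.0 CPM against 16.6 in apoptotic allogeneic and 10.7 in live allogeneic. Apoptotic allogeneic was the highest in erythroid-like cells, at 22.8 CPM against 21.0 in live allogeneic. Among red pulp macrophage-like cells live isogeneic (98.2 CPM) stood above apoptotic allogeneic (72.4). Of the classes with enough UMIs, the sum was past 1.5-fold higher in 5 of 7 for live allogeneic over live isogeneic. The background is the share of all genes called, each gene counted once per class: 11.1% higher and 17.7% lower in that comparison. The sum was higher in 7 of 7 for apoptotic allogeneic over apoptotic isogeneic (background 7.55% higher, 8.18% lower), though the interval of red pulp macrophage-like cells, at 1.53-fold (0.782 to 3.09), held 1. Over saline it was higher in 7 of 7 for live allogeneic (12.2% and 17.1%), 5 of 7 for live isogeneic (11.4% and 9.44%), 7 of 7 for apoptotic allogeneic (6.32% and 9.69%) and 2 of 6 for apoptotic isogeneic (6.58% and 9.44%). The whole interval over saline lay above 1 in 7 classes tested for live allogeneic and in 3 for live isogeneic. It did so in 6 for apoptotic allogeneic and in 2 for apoptotic isogeneic. The sum was past 1.5-fold lower in 0 classes in each of the 6 comparisons.

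For the live pair, the widest folds were those of T-like and B-like cells. B-like cells stood at 2.94 CPM in saline (9 UMIs), 98.0 in live allogeneic (250 UMIs), 15.8 in live isogeneic (86 UMIs), 35.3 in apoptotic allogeneic (93 UMIs) and 7.28 in apoptotic isogeneic (58 UMIs). With the libraries ranked by level, neighbouring intervals did not overlap, except those of saline and apoptotic isogeneic, which touched at 5.53 to 5.59 CPM. Live over live gave 6.20-fold (4.83 to 8.02) and apoptotic over apoptotic 4.86-fold (3.46 to 6.86), allogeneic over isogeneic. A B-like cluster led by interferon-stimulated genes held 227 of the 515 live allogeneic B-like cells. It held 38 of 1046 in saline, 69 of 1444 in live isogeneic, 29 of 700 in apoptotic allogeneic and 135 of 3447 in apoptotic isogeneic. Without it the live comparison was 5.70-fold (4.26 to 7.67) and the apoptotic one 5-fold (3.54 to 7.12).

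T-like cells were the 1 class in which live isogeneic infusion stood no higher than saline. The sum was 21.1 CPM in saline, 142 in live allogeneic, 14.6 in live isogeneic, 103 in apoptotic allogeneic and 32.3 in apoptotic isogeneic. Live allogeneic over live isogeneic was 9.74-fold (6.87 to 14.1), apoptotic allogeneic over apoptotic isogeneic 3.20-fold (2.46 to 4.14), and live isogeneic over saline 0.689-fold (0.405 to 1.19). cDC1-like cells, which cross-present antigen to CD8+ T cells, followed the order of cDC2-like cells, at 24.3, 169, 75.1, 112 and 35.3 CPM in the 5 libraries. The Cd209a-led cluster spanned less, from 76.4 in apoptotic isogeneic and 105 in saline to 139 in live isogeneic, 168 in apoptotic allogeneic and 198 in live allogeneic. With cells thinned to 1000 UMIs, the log2 ratio of live allogeneic to saline in that cluster was -0.16 (6 and 16 UMIs), against 0.86 from all UMIs.

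In 2 classes with too few live allogeneic cells, the sum was also past 1.5-fold higher in the apoptotic pair. Mature DC-like cells stood at 59.8 CPM in saline, 230 in live isogeneic, 257 in apoptotic allogeneic and 74.6 in apoptotic isogeneic, and apoptotic allogeneic over apoptotic isogeneic was 3.44-fold (2.14 to 5.79). Non-classical monocyte-like cells stood at 86.0, 165, 257 and 118 CPM in the same order, with 2.18-fold (1.13 to 4.51). In the endothelial or stromal-like class, live allogeneic stood at 104 CPM against 15.2 in saline, while the apoptotic pair had 6 against 1 UMIs (30.9 and 4.71 CPM), too few to call. An unnamed cluster led by Apol7c had 1 and 0 UMIs in the apoptotic pair. pDC-like, NK-like and erythroid-like cells were low throughout, with at most 18.0, 29.5 and 22.8 CPM. The apoptotic pair of erythroid-like cells had the widest fold of the 9 classes, 43.7 (7.61 to 1748), from 77 UMIs against 1. In NK-like cells of the saline library no UMI was seen among 392774, which allows a level of up to 7.64 CPM.

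Both copies took part. Over all cells the ratio of Hspa1b to Hspa1a UMIs was between 0.927 and 1.15 in the 5 libraries. In cDC2-like cells Hspa1a stood at 27.9, 126, 59.9, 94.2 and 25.1 CPM in the 5 libraries. Hspa1b stood at 26.3, 102, 64.9, 112 and 29.3 CPM in the same order. For live allogeneic over live isogeneic the folds were 2.10 (1.64 to 2.70) and 1.57 (1.2 to 2.03), and for apoptotic allogeneic over apoptotic isogeneic 3.75 (2.60 to 5.53) and 3.82 (2.73 to 5.46). Among cells with an Hspa1a UMI, 25.2% (apoptotic isogeneic) to 56.3% (live allogeneic) also had an Hspa1b UMI, against 2.41% to 14.2% of the other cells of the library. Depth differs between those cells and the rest, and its part in this was not tested.

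The level in barcodes without a cell, a measure of free RNA, moved with the libraries too. In barcodes of 10 to 100 UMIs, too few for a cell, the summed level was 15.3 CPM in saline, 99.9 in live allogeneic, 52.8 in live isogeneic and 18.0 in apoptotic isogeneic; the apoptotic allogeneic table starts at 500 UMIs and has no such barcodes. The whole intervals of cDC2-like cells and of the Cd209a-led cluster lay above this level in each of those 4 libraries, and those of cDC1-like cells in 3 of them. The interval of erythroid-like cells lay below it in each of the 4, as did that of B-like cells in saline, live isogeneic and apoptotic isogeneic. Within 1 library, classes differed beyond counting error, with erythroid-like cells at 21.0 and cDC2-like cells at 227 CPM in live allogeneic. The part of free RNA in the levels of the classes was not tested.

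In cDC2-like cells, immediate early genes lay opposite to Hspa1a and Hspa1b in the live pair and in the same direction in the apoptotic pair. These genes were listed as linked to tissue digestion, and whether digestion set their levels here was not tested. The summed level of 18 such genes (Fos, Jun, Egr1 and the like) in cDC2-like cells was 3591 CPM in saline, 3421 in live allogeneic, 5110 in live isogeneic, 4023 in apoptotic allogeneic and 3271 in apoptotic isogeneic, highest in a library that lay in the middle for HSP70. For live allogeneic over live isogeneic, 9 of the 18 were past 1.5-fold lower and 0 higher (14.6% and 11.1% of all genes in this class), with Fos at 137 against 291 CPM (0.469-fold, 0.388 to 0.564). For apoptotic allogeneic over apoptotic isogeneic, 3 of 18 were higher and 0 lower (7.35% and 6.28%), with Fos at 169 against 77.5 CPM (2.18-fold, 1.75 to 2.73). In the cDC2-like cells, markers of other types stood between 209 CPM (live allogeneic) and 640 CPM (apoptotic isogeneic) for the 12 B cell markers, 9 to 12 of them with a UMI. NK cell markers stood between 450 CPM (live allogeneic) and 1206 (apoptotic isogeneic), and the cDC2 markers themselves between 1936 (live allogeneic) and 2535 (saline). Those of red pulp macrophages stood between 18.5 and 37.0 CPM, with Cd163 and Mertk at 0 in all 5 libraries, and those of neutrophils between 13.4 and 36.1 CPM, with Camp and Ngp at 0. Classical monocyte markers stood at 3106 (saline) to 4435 CPM (live allogeneic), with Chil3 and Vcan at 0. The median mitochondrial share of a cell was 2.86% to 3.06%. Neither the part of these markers nor that of the immediate early genes in the HSP70 levels was tested.

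Shares of cDC2-like cells with an HSP70 UMI were counted at equal depth. With each cDC2-like cell thinned to 1000 UMIs, 5.29% of cells had an Hspa1a or Hspa1b UMI in saline (exact binomial interval 3.17% to 8.24%), 19.6% (12.0% to 29.1%) in live allogeneic, 11.3% (7.86% to 15.6%) in live isogeneic, 19.2% (14.6% to 24.4%) in apoptotic allogeneic and 6.49% (4.11% to 9.66%) in apoptotic isogeneic. The intervals of the apoptotic pair lay apart, and those of the live pair overlapped. Free RNA, at 99.9 CPM in live allogeneic and 52.8 in live isogeneic, was not taken off, and its part in these shares was not tested. Unthinned, the shares were 15%, 62.0%, 29.3%, 46.2% and 15.3%, at median depths of 5277, 9503, 7337, 6670 and 3873 UMIs a cell. In erythroid-like cells, the class with the lowest level, 0 or 1 cells of a library had such a UMI after thinning; 0 of 318 in live isogeneic allows a share of up to 0.943%. The 5% of cDC2-like cells with the most such UMIs held 27.9% of them in live allogeneic and 55.4% in saline. The saline value lies in the range of red pulp macrophage-like cells, in which 5% of cells held 50% to 94.7% of the UMIs. These shares also depend on how many UMIs a class holds, which was not evened out. Red pulp macrophage-like cells had up to 11 such UMIs in 1 cell, and after thinning 1.67% to 6.15% of them had one. When these cells were thinned before summing, the log2 ratio to saline was -0.98 for live allogeneic and -1.42 for live isogeneic, against 1.03 and 0.95 from all UMIs, with 1 UMI left in each live library and 4 in saline.

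The other inducible members did not share this order. Dnajb1, the HSP40 partner, stood in cDC2-like cells at 41.9 CPM in saline, 31.2 in live allogeneic, 41.4 in live isogeneic, 50.2 in apoptotic allogeneic and 32.8 in apoptotic isogeneic. Only the apoptotic contrast was past 1.5-fold there, at 1.53-fold (1.06 to 2.22), or 1.49-fold (0.987 to 2.27) without the cycling cluster, and live over live was 0.754-fold (0.488 to 1.14). In T-like cells, where HSP70 had its widest live contrast, Dnajb1 lay the other way, at 45 CPM in live allogeneic against 89.2 in live isogeneic, 0.504-fold (0.378 to 0.665). Over the 9 classes it was past 1.5-fold higher in 1 and lower in 3 for live allogeneic over live isogeneic, where 11.1% and 17.7% of all genes were called.

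Hsph1, the HSP110 exchange factor, was highest in the live isogeneic library in 8 of 9 classes. B-like cells stood at 28.8 CPM in saline, 32.9 in live allogeneic, 75.2 in live isogeneic, 32.3 in apoptotic allogeneic and 28.1 in apoptotic isogeneic, so 1 library stood apart from the other 4. Live allogeneic over live isogeneic was 0.438-fold (0.342 to 0.555) in B-like and 0.517-fold (0.305 to 0.840) in cDC2-like cells (0.557-fold, 0.265 to 1.07, without the cycling cluster), and past 1.5-fold lower in 6 of the 8 classes tested (background 17.7%). For live isogeneic over saline it was higher in 5 of 8 classes and lower in 0 (11.4% and 9.44%). In T-like cells live allogeneic and live isogeneic were level, at 71.9 and 70.8 CPM, but 69 of the 107 live allogeneic UMIs came from 20 cells of a cluster described with HSP90 below. Without that cluster the levels were 44.4 and 73.0 CPM, 0.608-fold (0.417 to 0.866). In pDC-like cells live allogeneic had 4 UMIs, at 10.7 CPM against 49.1 in live isogeneic.

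Bag3, the co-chaperone of selective autophagy, was near the limit of detection in most classes. It stood at 4.28 to 6.12 CPM over all cells, where 3 UMIs correspond to 0.125 to 0.283 CPM. In cDC2-like cells it had 4 to 15 UMIs a library (2.15 to 6.76 CPM) and in B-like cells 0 to 6, and 2 of the 9 classes reached 20 UMIs in each comparison. The endothelial or stromal-like class had the highest values where it was measured, 42.5 CPM in saline, 45.8 in live allogeneic, 25.8 in apoptotic allogeneic and 65.9 in apoptotic isogeneic.

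**Figure D2:**
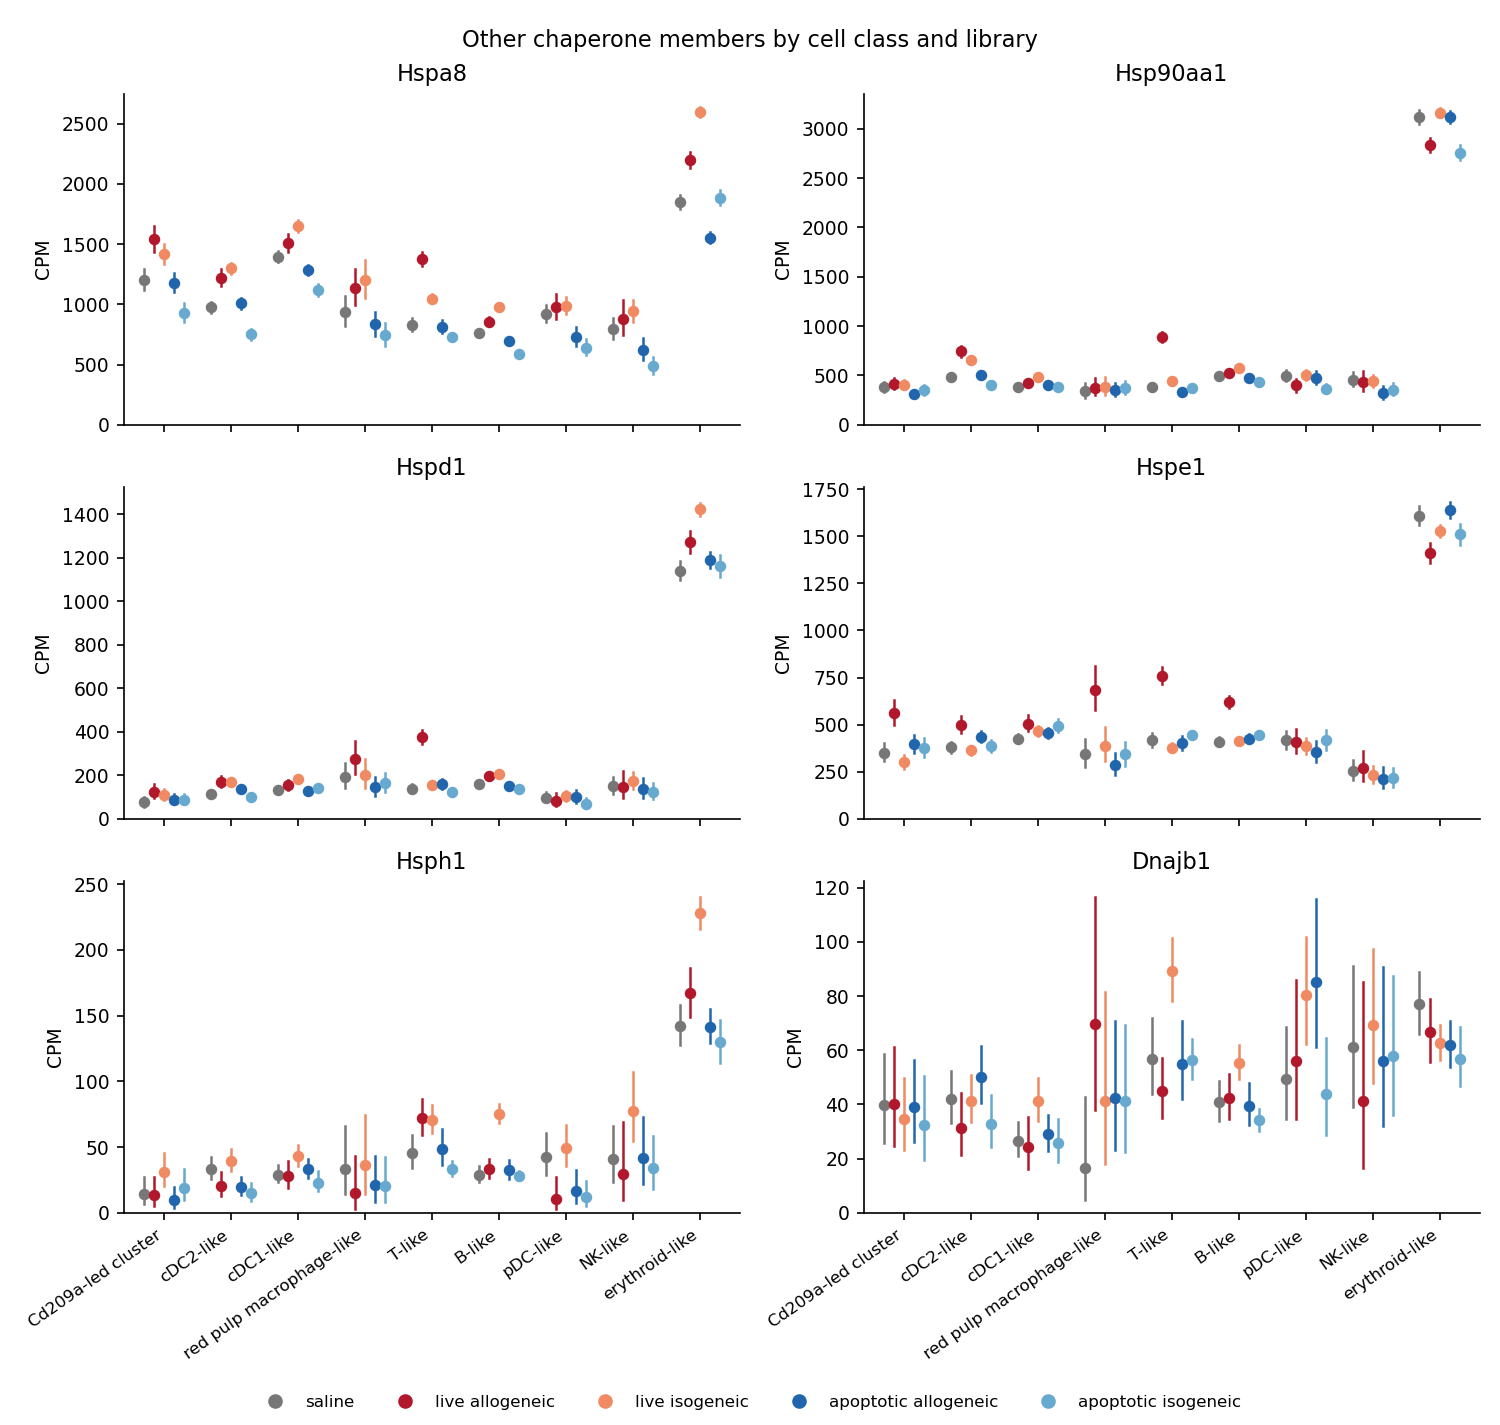
Levels (CPM) of Hspa8, Hsp90aa1, Hspd1, Hspe1, Hsph1 and Dnajb1 in the same 9 classes; points are libraries coloured by infusion and bars are 95% Poisson intervals. Erythroid-like cells stand above all other classes for Hsp90aa1 (2757 to 3165 CPM), Hspd1, Hspe1 and Hsph1, and T-like cells of the live allogeneic library stand out for Hsp90aa1, Hspd1 and Hspe1.

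HSC70 spanned 1.47-fold to 1.92-fold from the lowest to the highest library, depending on the class. Hspa8 in cDC2-like cells was at 974 CPM in saline, 1222 in live allogeneic, 1297 in live isogeneic, 1008 in apoptotic allogeneic and 749 in apoptotic isogeneic. It was highest in live isogeneic in 7 of 9 classes and lowest in apoptotic isogeneic in 8 of 9. Folds over the 9 classes and 6 comparisons ran from 0.618 to 1.65. Past 1.5-fold were T-like cells of live allogeneic over saline, at 1.65-fold (1.27, 1.16 to 1.39, without the 20 cells described with HSP90 below and the rest of their cluster), and 1 class in the comparison of apoptotic isogeneic with saline, NK-like cells at 0.618-fold. In cDC2-like cells the allogeneic fold was 1.34 (1.25 to 1.45) with apoptotic and 0.942 (0.881 to 1.01) with live cells. The apoptotic interval thus lay above 1 here while the live one held 1, and the difference between the pairs was not tested. The level of all 9 members summed was lowest in apoptotic isogeneic in 9 of 9 classes.

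Erythroid-like cells had the highest median of the 9 classes in Hspa8, Hsp90aa1, Hspd1, Hspe1, Hsph1 and Dnajb1. Hsp90aa1 stood at 2757 to 3165 CPM in them and at 307 to 888 CPM in the other 8 classes. Hspd1 stood at 1139 to 1421 CPM against 69.4 to 376, and Hspe1 at 1411 to 1640 against 213 to 760. Hspa8 had 1553 to 2597 CPM there, and its lower end overlapped the 1121 to 1652 of cDC1-like cells. The same cells were last of the 9 in the median of Hspa1a and Hspa1b summed. Of the 318 erythroid-like cells of live isogeneic, 159 came from a cluster with a median of 1836 UMIs a cell in that library, and Hspa8 stood at 2730 CPM in it, against 2597 in the class.

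T-like cells of the live allogeneic library held more HSP90 and mitochondrial chaperonin RNA, and the difference lay mostly in 20 cells. Hsp90aa1 was at 888 CPM in that library and at 334 to 446 in the other 4. Hspd1 was at 376 against 125 to 158 CPM, and Hspe1 at 760 against 377 to 446. A cluster of 46 T-like cells led by cycling and effector genes (Xcl1, Gzmc, Pclaf) held 20 live allogeneic cells, with a median of 26697.5 UMIs a cell. In those 20 cells Hsp90aa1 was at 1583 CPM and Hspd1 at 678, and the 10 apoptotic isogeneic cells of the cluster stood as high, at 1639 and 692 CPM, while the 10 live isogeneic cells stood at 827 and 101. Without the cluster, live allogeneic stood at 375 CPM for Hsp90aa1 and 153 for Hspd1, inside the range of the other libraries, and at 497 for Hspe1 against 375 to 429. Hspa1a and Hspa1b went the other way: without the cluster the live allogeneic level was 176 CPM and the fold over live isogeneic 12.6 (8.65 to 18.7).

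**Figure D3:**
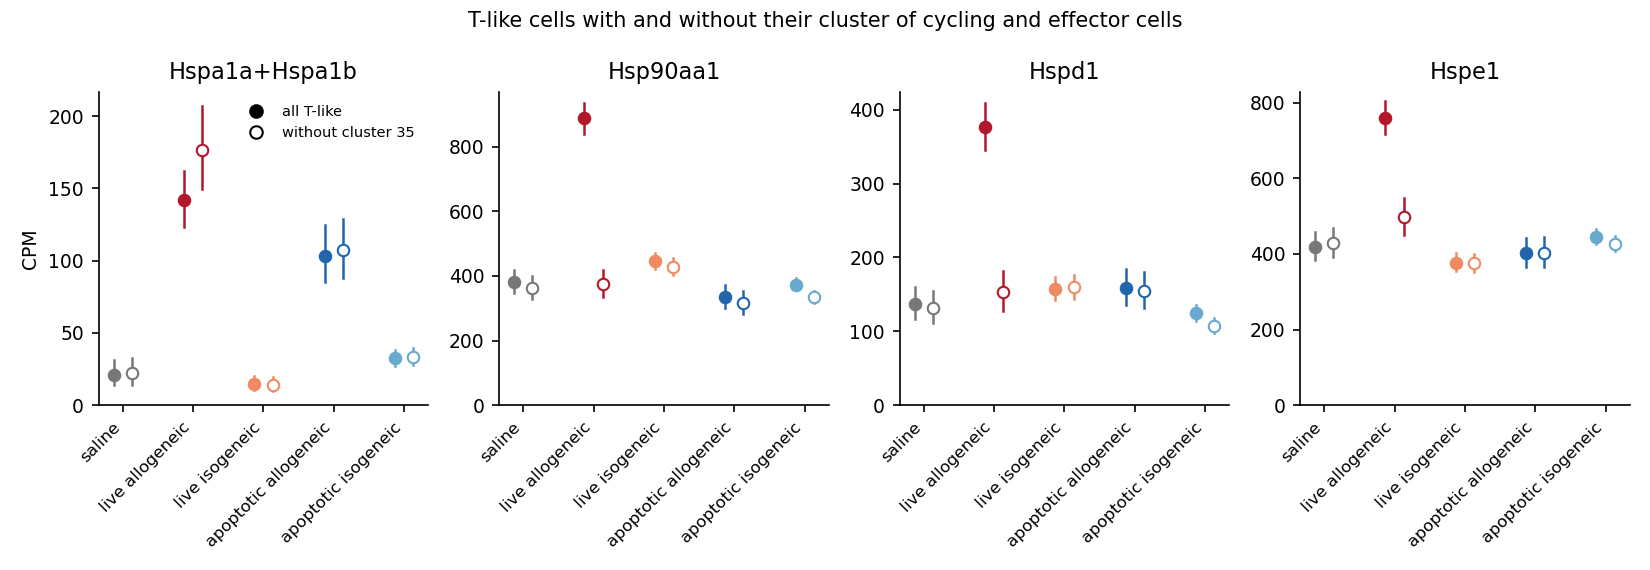
Levels (CPM) in T-like cells for each library, with all cells (filled) and without the cluster of cycling and effector cells (open); bars are 95% Poisson intervals. Hsp90aa1 and Hspd1 of the live allogeneic library drop from 888 and 376 CPM to 375 and 153, while Hspa1a and Hspa1b summed goes from 142 to 176.

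The matrix chaperonin pair split in the live comparison. Hspe1 was highest in live allogeneic in 7 of 9 classes, and past 1.5-fold higher than live isogeneic in 4 of 9 and lower in 0 (11.1% and 17.7% of all genes). T-like cells were among the 4, with 1.33-fold (1.18 to 1.49) without their cycling and effector cluster. B-like cells stood at 410 CPM in saline, 620 in live allogeneic, 413 in live isogeneic, 425 in apoptotic allogeneic and 442 in apoptotic isogeneic, so the live allogeneic library stood alone, at 1.5-fold (1.41 to 1.60) over live isogeneic. Without the interferon-led cluster B-like cells were at 610 and 414 CPM in the live pair, 1.47-fold (1.36 to 1.59), under the threshold. Hspd1, which shares the head-to-head start region printed above, was at 158, 197, 205, 152 and 135 CPM in the B-like cells of the 5 libraries, and 0.960-fold (0.863 to 1.07) for the live pair. Hspd1 was past 1.5-fold in the live pair in 0 of the 8 classes other than T-like. For apoptotic allogeneic over apoptotic isogeneic neither gene was past 1.5-fold in any of the 9 classes.

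**Figure D4:**
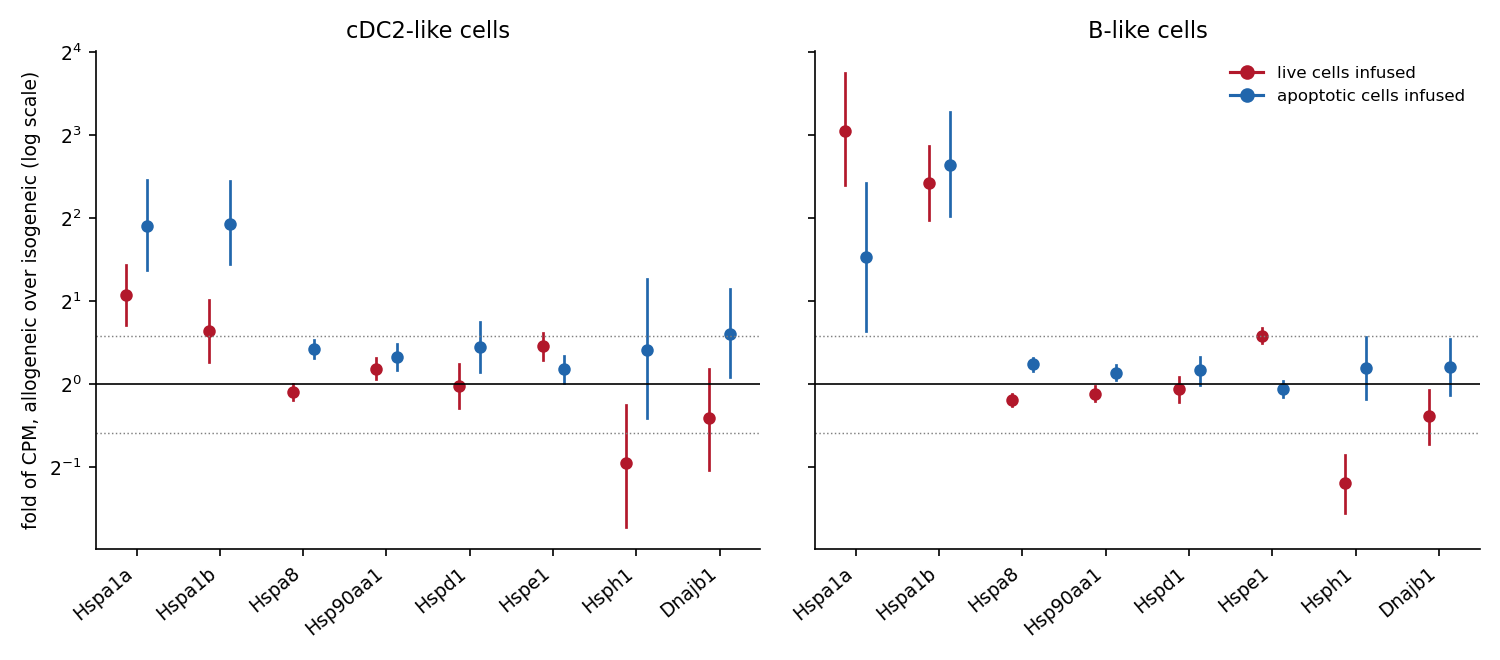
Fold of CPM for allogeneic over isogeneic infusion (log scale) in cDC2-like and B-like cells, with live (red) and apoptotic (blue) cells infused; bars are 95% intervals, the solid line is 1 and dotted lines are 1.5-fold either way, and Bag3, with too few UMIs, is left out. Hspa1a and Hspa1b lie above 1.5-fold throughout, the other 6 genes mostly between the dotted lines, and Hsph1 below them in the live comparison.

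As a list, the 9 members held few calls in cDC2-like cells, and those of Hspa1a and Hspa1b were part of why the genes were chosen. For live allogeneic over live isogeneic, 2 of 9 tested were higher and 1 lower, where 11.1% of 8831 genes were called higher and 14.6% lower. Their median log2 ratio was -0.02, beside -0.03 over all genes. For apoptotic allogeneic over apoptotic isogeneic, 3 of 8 were higher (Hspa1a, Hspa1b and Dnajb1) and 0 lower, with 7.35% and 6.28% of all genes, and the median was 0.42 beside 0.02. Over saline, 3 of 8 were higher for live allogeneic (background 14.2%), 2 of 8 for live isogeneic (12.5%), 2 of 8 for apoptotic allogeneic (5.32%) and 0 of 8 for apoptotic isogeneic (5.11%), while 1, 0, 1 and 1 were lower (16.4%, 8.79%, 8.36% and 9.14%). Hsp90aa1, the third for live allogeneic over saline at 1.54-fold, was at 1.15-fold (0.994 to 1.33) without the cycling cluster. In B-like cells 3 of 8 were higher (Hspa1a, Hspa1b and Hspe1) and 1 lower (Hsph1) for the live pair (background 5.07% and 22.1%). Of these, Hspe1 was at 1.47-fold without the interferon-led cluster, under the threshold. For the apoptotic pair 2 of 8 were higher (Hspa1a and Hspa1b) and 0 lower (4.29% and 5.52%).

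Whether members came together in single cells was counted next. After thinning to 1000 UMIs, 449 cells of the 9 classes had an Hspa1a or Hspa1b UMI. Hspa8 UMIs in them were 1.02 times (0.925 to 1.12) what cells without one had in the same class and library. The ratio was 1.18 (0.738 to 1.78) for Dnajb1, 0.790 (0.394 to 1.41) for Hsph1, 0.806 (0.592 to 1.07) for Hspd1 and 0.935 (0.801 to 1.08) for Hspe1, each with an interval that holds 1, as does that of Hspa8. Hsp90aa1 stood at 1.24 (1.09 to 1.41) over all libraries. By library it was 1.53 (1.17 to 1.96) in live isogeneic and 1.44 (1.13 to 1.81) in apoptotic allogeneic. The intervals held 1 in saline (ratio 1.09), live allogeneic (1.03) and apoptotic isogeneic (0.973). Bag3 had 0 UMIs where 2.11 were given by the rate of the other cells. Jun, an immediate early gene, stood at 1.2 (1.04 to 1.38) and Fos at 0.900 (0.664 to 1.19).

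Likeness of pattern was measured as Pearson's r of log2(CPM + 10), centred within each class, over 45 sums of 9 classes and 5 libraries, among 6152 genes of at least 20 CPM on average. The sums share libraries and their depth, so r is a description. The 5 genes most like Hspa1a and Hspa1b summed were Rpl35 (r = 0.84), Rps28 (0.76), Atp5k (0.76), Rpl38 (0.76) and Ndufa3 (0.75), which encode ribosomal proteins and subunits of the ATP synthase and of complex I. Rpl35 in cDC2-like cells was at 1216 CPM in saline, 1707 in live allogeneic, 1278 in live isogeneic, 1586 in apoptotic allogeneic and 1056 in apoptotic isogeneic, and both allogeneic libraries stood above the other 3 in each of the 9 classes. Of the members, Hspd1 came nearest, at rank 91 (r = 0.52), while Dnajb1 stood at rank 2075 (r = 0.04) and Hsph1 lower still (r = 0.03). Those nearest to Hspa8 were Hspa5 (0.86), the HSP70 of the endoplasmic reticulum, then H2-T23, Irgm1, Mrps28 and Gm10076. Those nearest to Hspd1 were Set (0.87), Dek, Ncl, Hsp90aa1 and Hsp90ab1.

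The wider chaperone network held few calls in the live pair, where 11.1% of all genes of the class were called higher and 14.6% lower. In cDC2-like cells, for live allogeneic over live isogeneic, 2 of 8 measured inducible cytosolic genes were higher and 0 lower, among them Ubb, a polyubiquitin gene, at 1650 against 812 CPM (2.03-fold, 1.90 to 2.17). Of 21 constitutive cytosolic genes 1 was higher, Stub1 at 1.51-fold (1.15 to 1.97), and 1 lower, Dnaja1, an HSP40, at 193 against 293 CPM (0.660-fold, 0.560 to 0.775). None of the 8 subunits of the cytosolic chaperonin CCT and none of 9 mitochondrial genes was past 1.5-fold. Of 19 genes of the endoplasmic reticulum 1 was lower, Hyou1 at 0.542-fold (0.286 to 0.966). Hsf1 itself stood at 17.3 to 24.7 CPM in the 5 libraries, with 24 to 51 UMIs.

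The apoptotic contrast had a few more calls, each in the direction of the allogeneic library, where 7.35% of all genes of the class were called higher and 6.28% lower. Higher were 2 of 7 inducible cytosolic genes, among them the HSP90 co-chaperone Chordc1 at 1.57-fold (1.16 to 2.15). Also higher were 4 of 21 constitutive cytosolic genes, with Fkbp4 at 1.89-fold (1.26 to 2.90), Ppid at 1.66-fold (1.16 to 2.41) and St13 at 1.58-fold (1.27 to 1.99), all co-chaperones of HSP90 or HSP70. Of 19 endoplasmic reticulum genes 3 were higher, Atf3 at 2.05-fold (1.22 to 3.58) and the co-chaperone Dnajb11 at 1.74-fold (1.21 to 2.52) among them. CCT and mitochondrial genes again had 0 of 8 and 0 of 9 past 1.5-fold. In the B-like cells Dnaja1, at 206 CPM in saline, 228 in live allogeneic and 364 in live isogeneic, followed Hsph1, with 0.627-fold (0.571 to 0.688) for the live pair and 1.77-fold (1.61 to 1.93) for live isogeneic over saline.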

How the data were processed

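The authors deposited raw UMI counts for each gene in each barcode. The submitters' processing notes name Cell Ranger 4.0 and the mm10 genome, and the labels' protocols name the 3′ kit v3.1. A barcode was kept as a cell from 1000 UMIs and 500 genes upward, if mitochondrial genes gave 10% of its UMIs or less. Members and gene lists were chosen with earlier results of these data known. Cells were clustered with scanpy 1.11.5 and leidenalg 0.10.2 (2000 variable genes without the members and stress lists, 30 components, 15 neighbours, resolution 1) into 38 clusters, named from marker lists; 5 stayed unnamed. No doublet caller was applied in the main analysis, since Scrublet called only 1 to 8 cells in 4 libraries and 117 in apoptotic isogeneic. Counts were summed per class and library. Intervals are exact Poisson (levels), conditional Poisson (folds) and Clopper-Pearson (shares), all 95%, for counting error only, and a count of 0 allows 3 counts. Log2 ratios use a pseudocount of 10 CPM. Named genes are the 9 members, pathway genes past 1.5-fold with at least 50 UMIs (up to 3 per list, direction and pair, in cDC2-like and B-like cells), and the 5 genes most alike in pattern. Ratio and interval code was tested on simulated data. Promoters come from RefSeq (GRCm38.p6) and gene positions from GENCODE vM21, matched on Ensembl identifiers.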

Additional observations from a re-analysis of the deposited data

Results flagged for a closer look

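Hsph1 lay in opposite directions in 2 classes under the same contrast. For live allogeneic over saline it was 1.58-fold (1.13 to 2.23) in T-like cells, at 71.9 against 45.6 CPM (107 and 54 UMIs), and 0.951-fold (0.610 to 1.47; 38 and 53 UMIs) without the cluster of cycling and effector cells, so the call rests on that cluster. It was 0.251-fold (0.0643 to 0.709) in pDC-like cells, at 10.7 against 42.6 CPM (4 and 31 UMIs). The difference between the classes was not tested, since each group has 1 library.

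Some barcodes outside the cell filter carried members at levels above those of the saline control. In barcodes of 10 to 100 UMIs, Hspa1a and Hspa1b together stood at 99.9 CPM (79.3 to 124) in live allogeneic and 52.8 CPM (46.5 to 59.8) in live isogeneic, against 15.3 CPM (8.73 to 24.8) in saline. Hsph1 stood at 87.7 CPM (79.5 to 96.6) in live isogeneic against 49.7 (37.1 to 65.1) in saline.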

How the results depend on the processing

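No paired analysis was possible because each group has 1 library. Of 221 repeats of the results that answer a comparison, 200 stayed within the counting interval (or, for counts of classes, within 1.5 times). Another 21 moved beyond it and 0 reversed. Only a log2 ratio past 1.5-fold could count as reversed, and changes of sign among smaller ones are given below. In cDC2-like cells the log2 ratio of Hspa1a and Hspa1b was 1.75 for apoptotic allogeneic over apoptotic isogeneic (1.29 with a pseudocount of 50 CPM), 1.89 for live allogeneic over saline (1.41 with that pseudocount, 1.52 at resolution 2), 1.75 for apoptotic allogeneic over saline (1.3, 1.41, and 1.41 with the Cd209a-led cluster added, an alternative chosen after seeing the data, as were those leaving out single clusters) and 1.07 for live isogeneic over saline (0.75 with that pseudocount). The live pair, at 0.82, was at 1.25 without the cycling cluster of cDC2-like cells and ranged down to 0.63. Of the medians over the 9 members, that of live isogeneic over saline, at 0.42, was 0.25 without that cluster, and the other 5 did not move beyond their intervals. Counts of classes past 1.5-fold over saline, 5 for live isogeneic and 2 for apoptotic isogeneic, were 3 and 1 with at most 5% mitochondrial UMIs. Apoptotic isogeneic also had 1 without the 1% of cells highest in the members. After thinning, with fewer UMIs and so fewer classes tested, they were 3 for live allogeneic, 2 for live isogeneic, 4 for apoptotic allogeneic and 1 for apoptotic isogeneic. Unthinned shares of cDC2-like cells with an Hspa1a or Hspa1b UMI were 15%, 62.0%, 29.3%, 46.2% and 15.3% in the 5 libraries, in the order used above. Of 97 log2 ratios 23 changed sign in at least 1 alternative, 19 of them among the 57 within 1.5-fold. The 4 among the 40 past 1.5-fold, all after thinning, were red pulp macrophage-like cells over saline (-0.98 live allogeneic, -1.42 live isogeneic), the Cd209a-led cluster (-0.16, live allogeneic over saline) and Hsph1 in cDC2-like cells (0.20, apoptotic isogeneic over saline); the cause was not tested. Counts of classes were not recomputed at other resolutions, where classes differ. Scaling by the median gene ratio shifted cDC2-like log2 ratios by at most 0.09. Depth limits Bag3 in most classes and Hsph1 and Dnajb1 in the smaller classes.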
